A study of Mus musculus with 28 samples.

Results

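The genes described here are 10 AP-1 and immediate early genes: the AP-1 subunit genes Fos, Fosb, Fosl1, Fosl2, Jun, Junb and Jund, the transcription factor gene Egr1, Ier2, and the phosphatase gene Dusp1. They were chosen by name, and all 10 were measured, among 18193 genes on the arrays. Expression was measured in B-cell lymphomas of C57BL/6 mice carrying the Emu-myc transgene, which expresses Myc throughout the B-cell lineage. The lymphoma cells were taken from lymph nodes, transduced with a retrovirus carrying the apoptosis inhibitor Bcl2, selected, and grown in vitro on irradiated NIH 3T3 feeder fibroblasts. From each of 14 lymphomas came a pair of cultures, untreated or kept for 5 days in Adriamycin (ADR) at 0.05 µg/ml, so the arrays are matched within a lymphoma. ADR is doxorubicin, which traps topoisomerase on DNA and causes strand breaks. Both groups carry the Myc transgene and the Bcl2 retrovirus, and the matched pairs ask how transcription differs in treatment-induced senescence. Lymphomas are named by the identifier in the labels, and p-values measure the spread between these 14.

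AP-1 is a dimer of basic leucine zipper proteins, usually 1 of the Fos family with 1 of the Jun family, that binds the sequence TGACTCA in enhancers and promoters. Fos, Egr1, Ier2 and Dusp1 are textbook immediate early genes: growth factors, stress and handling of cells induce them within minutes through MAP kinases, with no need for new protein synthesis. Fosl1 and Fosl2 encode later and longer-lived Fos proteins, and fibroblasts are a classical cell type for serum induction of many of these genes.

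After ADR, 5 of the 10 genes rose and 0 fell: Fosl2, Fosl1, Fos, Dusp1 and Jun (limma with lymphoma as a block, Benjamini-Hochberg adjusted p under 0.05 over all genes). Over all genes 28.7% passed the same test, 15.3% higher and 13.4% lower. At an unadjusted p under 0.05 the count was 7 of 10, with none of them lower. The share of all genes at that looser threshold was not counted, and it is at least 28.7%. The median change of the 10 genes was 1.14 on the log2 scale, against -0.0011 over all genes. Across lymphomas the changes of 8 of the 10 genes followed that of Col1a2, a collagen gene of fibroblasts such as the feeder cells (8.58% of all genes did so upwards and 8.28% downwards). At no Col1a2 change 0 of 10 passed, against 10.2% of all genes (5.61% higher, 4.58% lower).

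The brightness of each gene is the deposited log2 expression value of its probe set with the highest mean, and array medians lay between 4.71 and 4.80. Col1a2 rose in 14 of 14 lymphomas, by 0.38 to 6.31, and its level went from 5.71 ± 0.72 (SD, n = 14) to 8.65 ± 1.96. Of 14 measured fibroblast markers 13 rose, and their mean level ranged from 4.58 to 5.80 in untreated and from 5.06 to 9.45 in ADR arrays. Of 11 macrophage markers 8 rose, with mean levels of 5.22 to 8.78 and 6.50 to 9.82. Of 9 B-cell markers 4 fell, with mean levels of 8.95 to 10.1 and 8.01 to 10.5. Mean levels of the T-cell, granulocyte, endothelial and NK-cell markers stayed between 3.83 and 5.52 in every array, near the array medians. Of these markers 2 of 7 granulocyte genes rose, 1 of 5 endothelial and 1 of 4 NK-cell genes fell, and 0 of 7 T-cell genes passed. Single genes lay above these list means. S100a8 averaged 5.07 in untreated and 7.16 in ADR arrays (limma adjusted p = 0.00115), Cd28 5.78 and 6.38, and Pecam1 7.39 and 7.41. In cultures of mixed cells a change in the number of cells of a type and a change in RNA per cell cannot be told apart. The ADR array of lymphoma 1570 stood apart in RNA quality, with a 3' minus 5' signal of Gapdh of 0.92, where the next highest was 0.38, and without lymphoma 1570 again 5 of the 10 genes rose.

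Promoter sequences of the genes that rose, apart from Fosl1, are shown because several known control sites of immediate early genes lie close to their starts. They come from RefSeq (GRCm38.p6), and each is the 250 bases before the transcription start, 5′ to 3′. The promoter set held 7 of the 10 genes and had no entry for Fosl1, Egr1 or Ier2. Capitals mark matches, on either strand, to TGACGT or TGACGTCA (the cAMP response element, whose first 6 letters are the shorter motif), TGACATCA (the variant AP-1 site known from the Jun promoter), GCGGGGGCG (an EGR site) and TATAAA.
Fos: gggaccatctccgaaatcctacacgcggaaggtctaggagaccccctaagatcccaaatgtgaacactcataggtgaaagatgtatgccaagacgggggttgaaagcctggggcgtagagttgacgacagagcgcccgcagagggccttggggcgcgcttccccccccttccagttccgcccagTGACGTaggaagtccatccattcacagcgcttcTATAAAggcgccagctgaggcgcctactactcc
Fosl2: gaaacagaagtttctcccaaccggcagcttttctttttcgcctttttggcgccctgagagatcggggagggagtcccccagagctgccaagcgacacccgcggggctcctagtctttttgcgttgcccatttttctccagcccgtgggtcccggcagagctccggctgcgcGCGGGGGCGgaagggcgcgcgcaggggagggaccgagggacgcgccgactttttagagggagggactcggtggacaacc
Jun: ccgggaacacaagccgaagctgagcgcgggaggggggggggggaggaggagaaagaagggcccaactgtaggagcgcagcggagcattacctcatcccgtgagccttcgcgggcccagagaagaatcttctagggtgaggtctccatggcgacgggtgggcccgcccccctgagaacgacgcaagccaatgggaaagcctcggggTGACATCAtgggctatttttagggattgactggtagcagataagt
Dusp1: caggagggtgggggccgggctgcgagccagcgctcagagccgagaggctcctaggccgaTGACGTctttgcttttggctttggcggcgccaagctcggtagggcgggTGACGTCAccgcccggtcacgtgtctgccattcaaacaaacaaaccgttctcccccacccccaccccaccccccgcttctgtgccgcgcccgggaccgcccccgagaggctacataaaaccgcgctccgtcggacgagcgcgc
The Fos window is chr12:85473640-85473889 on the plus strand, the Fosl2 window chr5:32136222-32136471 on the plus strand, the Jun window chr4:95052223-95052472 on the minus strand and the Dusp1 window chr17:26508473-26508722 on the minus strand. In Fos, TGACGT lay at -66 to -61 and TATAAA at -33 to -28 from the start. In Dusp1 a full TGACGTCA lay at -143 to -136 and a further TGACGT at -191 to -186. In Jun, TGACATCA lay at -45 to -38, and in Fosl2 GCGGGGGCG lay at -79 to -71. Of the 32851 promoter windows in the table, of the same length, TGACGTCA was in 1.55%, TGACGT in 6.47%, TGACATCA in 2.93%, GCGGGGGCG in 2.57% and TATAAA in 12.4%. The AP-1 site TGACTCA was in 4.46% of windows and in 0 of the 7, and the serum response element (the CArG box) in 1.47% and 0 of 7. Sites more than 250 bases before the start were not searched, so these genes may hold either motif farther upstream. Fosb also held GCGGGGGCG, at -50 to -42, and the windows of Junb and Jund held none of these motifs. A match is only a run of letters, and no binding was measured.

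**Figure D1:**
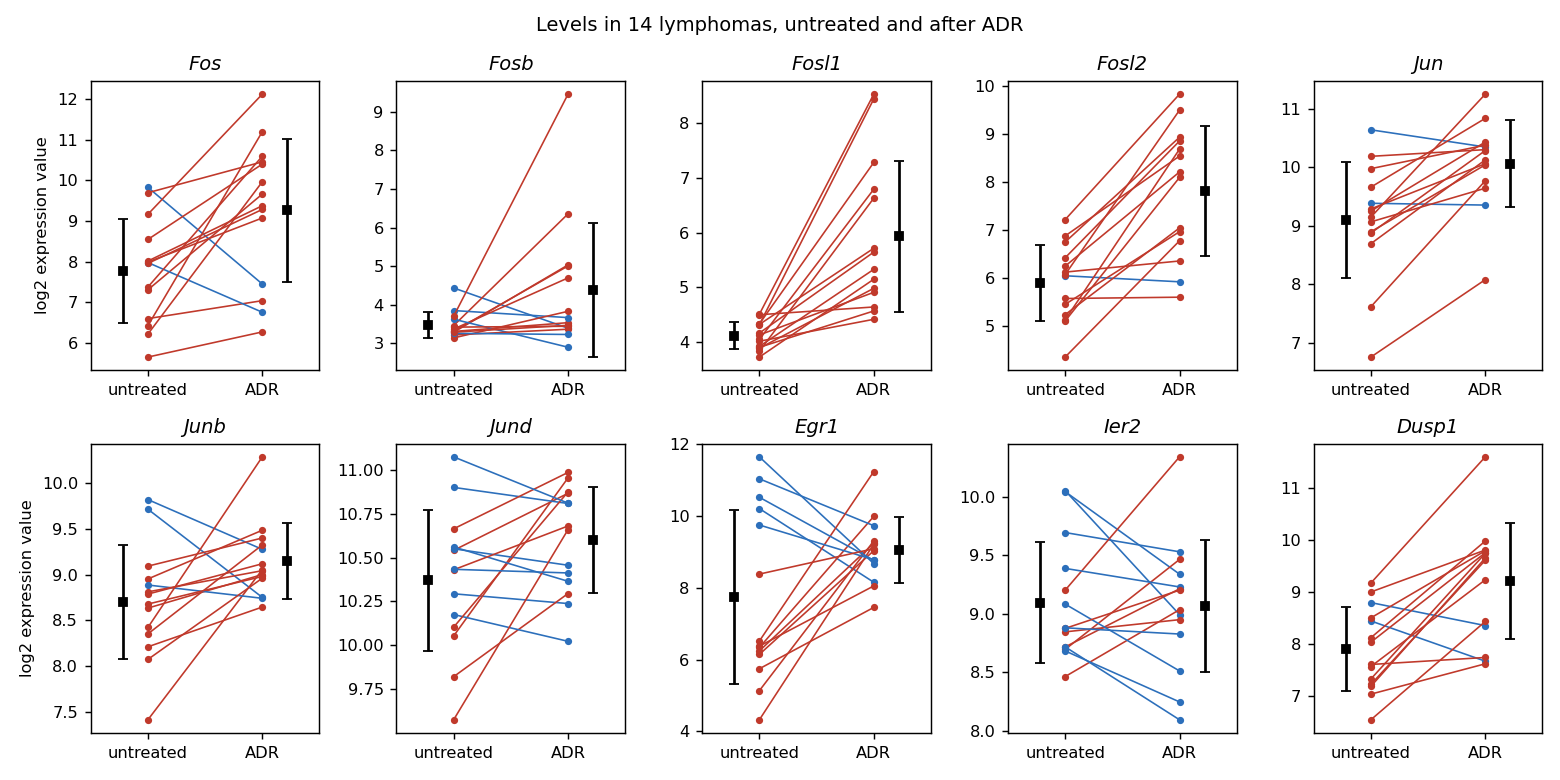
Log2 expression value (y axis) of each of the 10 genes in untreated and ADR cultures (x axis), with a line for each of 14 lymphomas, red where ADR was higher and blue where it was lower. Black squares and bars are the mean and SD of each group. All 14 lines of Fosl1 go up, while those of Egr1 meet from both sides.

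Among the Fos family, Fosl2 had the largest mean change. Its untreated values ran from 4.35 through a median of 6.05 to 7.21 and its ADR values from 5.60 through 8.15 to 9.83. The groups overlapped, as they did for all 10 genes (0.253% of all genes had no overlap), with 8 of 14 ADR arrays above the highest untreated array. Fosl2 rose in 13 of 14 lymphomas by 1.91 ± 0.29 (SE, n = 14; 3.75-fold; adjusted p = 1.28e-04). A dimmer Fosl2 probe set, with a mean level of 5.21, read 0.17 ± 0.13 (adjusted p = 0.395 over all probe sets), so the rise rests on the brighter one.

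Fosl1, which encodes a Fos protein that lacks the transactivation domain of Fos, was below every array median (4.71 to 4.80) before treatment. Its untreated values lay within 3.73 to 4.51, with a median of 4.09. Its ADR values spread from 4.42 through 5.49 to 8.52, and 13 of 14 ADR arrays were above the highest untreated one. Fosl1 rose in all 14 lymphomas by 1.81 ± 0.31 (3.51-fold, adjusted p = 4.07e-04). The rise was 4.12 in lymphoma 5560 and 4.01 in 403 but 0.14 in 1467. The other Fosl1 probe set rose too, by 1.01 ± 0.22 in 13 of 14 lymphomas (adjusted p = 0.00327).

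Fos itself varied widely before treatment, from 5.65 in lymphoma 9583 through a median of 7.96 to 9.83 in 1467. After ADR it ran from 6.27 through 9.52 to 12.1, and 6 of 14 ADR arrays were above the highest untreated one. Fos was higher in 12 of 14 lymphomas, by 1.50 ± 0.46 (2.82-fold, adjusted p = 0.0225). Lymphomas 1467 (-2.38) and 2949 (-1.22) went the other way, and the highest rise was 4.78 in 3594. The call is close to the threshold: it ended without lymphoma 3769 (adjusted p = 0.0505), within the 11 lymphomas that the labels trace to an earlier series (adjusted p = 0.0520), without 403 and 5560 (adjusted p = 0.0554) and without the block (adjusted p = 0.0580).

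Fosb, the remaining Fos family gene, was near the low end of the scale in every untreated array, at 3.14 to 4.43 with a median of 3.34. After ADR it ran from 2.89 through 3.60 to 9.46, with 5 arrays above the highest untreated one. Its change of 0.91 ± 0.43, in 10 of 14 lymphomas, did not pass (adjusted p = 0.131). Lymphoma 5560 stood at 5.76, while the median change was 0.20.

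In the Jun family only Jun passed. Jun encodes the classical partner of Fos. It ran from 6.76 through 9.20 to 10.6 in untreated and from 8.08 through 10.2 to 11.3 in ADR arrays. The groups overlapped nearly throughout, with 2 ADR arrays above the highest untreated one. Within lymphomas Jun rose in 12 of 14, by 0.96 ± 0.18 (1.95-fold, adjusted p = 8.88e-04), the exceptions being 2949 (-0.29) and 1467 (-0.031). A second Jun probe set rose by 0.93 ± 0.12 in 13 of 14 lymphomas (adjusted p = 4.23e-05).

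Junb, which encodes a weaker activator than Jun, went from a median of 8.73 (7.41 to 9.82) to 9.05 (8.64 to 10.3). Its change of 0.44 ± 0.19, in 11 of 14 lymphomas, did not pass (adjusted p = 0.0869). It passed without lymphoma 1467 (0.55, adjusted p = 0.0215), without 2949 (0.52, adjusted p = 0.0445) and with lymphoma as a random block (adjusted p = 0.0486). Jund, whose product is present in most resting cells, lay between 9.58 and 11.1 in every array of both groups. Its change was 0.23 ± 0.11 with 7 of 14 lymphomas higher and did not pass (adjusted p = 0.137, 95% confidence interval -0.0028 to 0.47). A second Jund probe set near the low end of the scale, at a mean level of 3.84, read -0.16.

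Dusp1 encodes a nuclear phosphatase that switches off the stress kinases JNK and p38 upstream of AP-1. Its untreated values ran from 6.54 through 7.82 to 9.17 and its ADR values from 7.62 through 9.63 to 11.6. In ADR arrays 9 of 14 were above the highest untreated one. Dusp1 rose in 12 of 14 lymphomas by 1.32 ± 0.27 (2.50-fold, adjusted p = 0.00142), again with 1467 (-0.78) and 2949 (-0.44) as the exceptions. Ier2, a nuclear immediate early protein, showed no such shift, with medians of 8.88 (8.46 to 10.1) and 9.12 (8.09 to 10.3). Its change was -0.026 ± 0.16 (adjusted p = 0.928, 95% confidence interval -0.36 to 0.30), with 6 lymphomas higher and 8 lower.

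Egr1, a zinc finger factor induced by the ERK pathway, was the most variable of the 10 genes before treatment. Its untreated values ran from 4.33 in lymphoma 2581 through a median of 6.45 to 11.6 in 2949, with a gap between 8 lymphomas at or under 6.52 and 6 at or over 8.38. After ADR the values were closer together, from 7.45 through 9.06 to 11.2, and the SD was 0.92 where it had been 2.43. All 8 lymphomas below the gap were higher after ADR, by 1.68 to 4.89, and 5 of the 6 above it were lower, the changes of these 6 lying between -2.97 and 0.71. The mean change of 1.31 ± 0.66 did not pass (adjusted p = 0.158). The untreated value enters each change with a minus sign, and the gap was found in these same values, so lymphomas that start low or high would tend to move this way from variation in the untreated arrays alone. The split is a description, and neither the gap nor the difference in spread was tested.

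**Figure D2:**
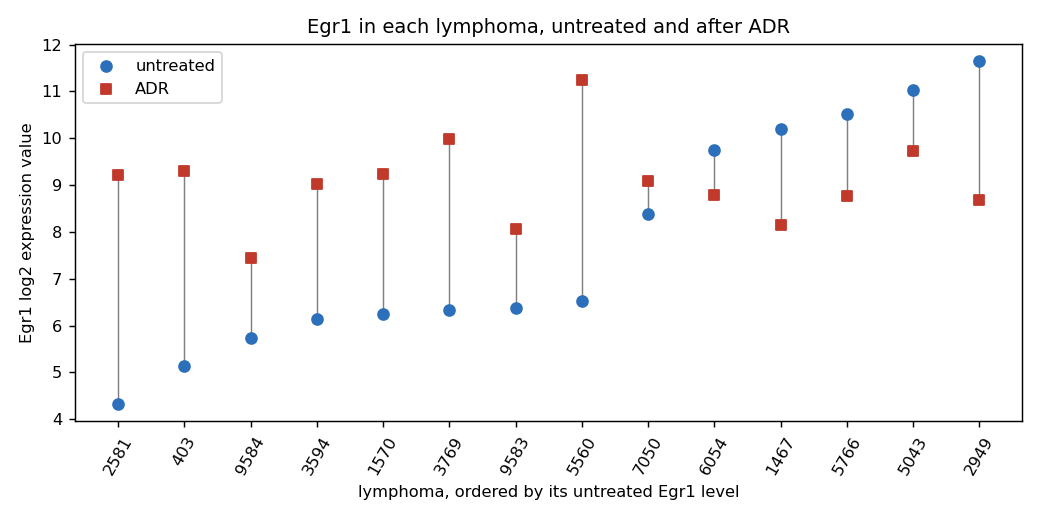
Log2 expression value of Egr1 (y axis) in each of 14 lymphomas (x axis), ordered by the untreated level, with untreated cultures as blue circles and ADR cultures as red squares joined by a line. The 8 lymphomas on the left, at or under 6.52 untreated, all went up, and 5 of the 6 on the right went down.

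The size of these changes was then set against the change of Col1a2 in the same lymphoma. In a limma fit of the 14 changes of every gene on the Col1a2 change, the slope was above 0 and passed for 8 of the 10 genes, and 0 passed below 0. The steepest was Egr1, with 0.94 ± 0.26 log2 units per unit of Col1a2 (adjusted p = 0.0199). Fosb (0.67 ± 0.15, adjusted p = 0.00679), Fos (0.62 ± 0.19, adjusted p = 0.0373) and Fosl1 (0.62 ± 0.064, adjusted p = 2.00e-05) followed. Fosl2, Dusp1, Junb and Jun had slopes from 0.28 to 0.42, with adjusted p from 0.00723 to 0.0186. Ier2 (0.18 ± 0.071, adjusted p = 0.103) and Jund (-0.048 ± 0.059, adjusted p = 0.665) did not pass. Untreated levels enter each change with a minus sign, and those of Egr1 (SD 2.43) varied more than its ADR levels (SD 0.92). Its slope therefore does not rest on the ADR arrays alone. The count fell from 8 to 5 without lymphoma 1467 and to 5 without 5560. The slope of Fos lost its call in 8 of the 14 fits that left out 1 lymphoma, with an adjusted p of up to 0.125, that of Egr1 in 3 (1467, 2949 or 5560), that of Fosl2 in 2 (1467 or 403) and that of Jun in 1 (5560). The slope of Ier2 passed without 403 (0.30, adjusted p = 0.00411) and without 403 and 5560 (0.28, adjusted p = 0.0302). Without 403 and 5560 the slopes of Egr1 (0.92, adjusted p = 0.169), Fosl2 (0.48, adjusted p = 0.0885) and Jun (0.31, adjusted p = 0.0690) did not pass, and Fos had the steepest slope, 1.12 (adjusted p = 0.00540). The slope of Fos did not pass within the 11 lymphomas (0.70, adjusted p = 0.0643) or with the most variable probe set per gene (0.48, adjusted p = 0.131). The second Jun probe set had a slope of 0.14 that did not pass (adjusted p = 0.111).

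**Figure D3:**
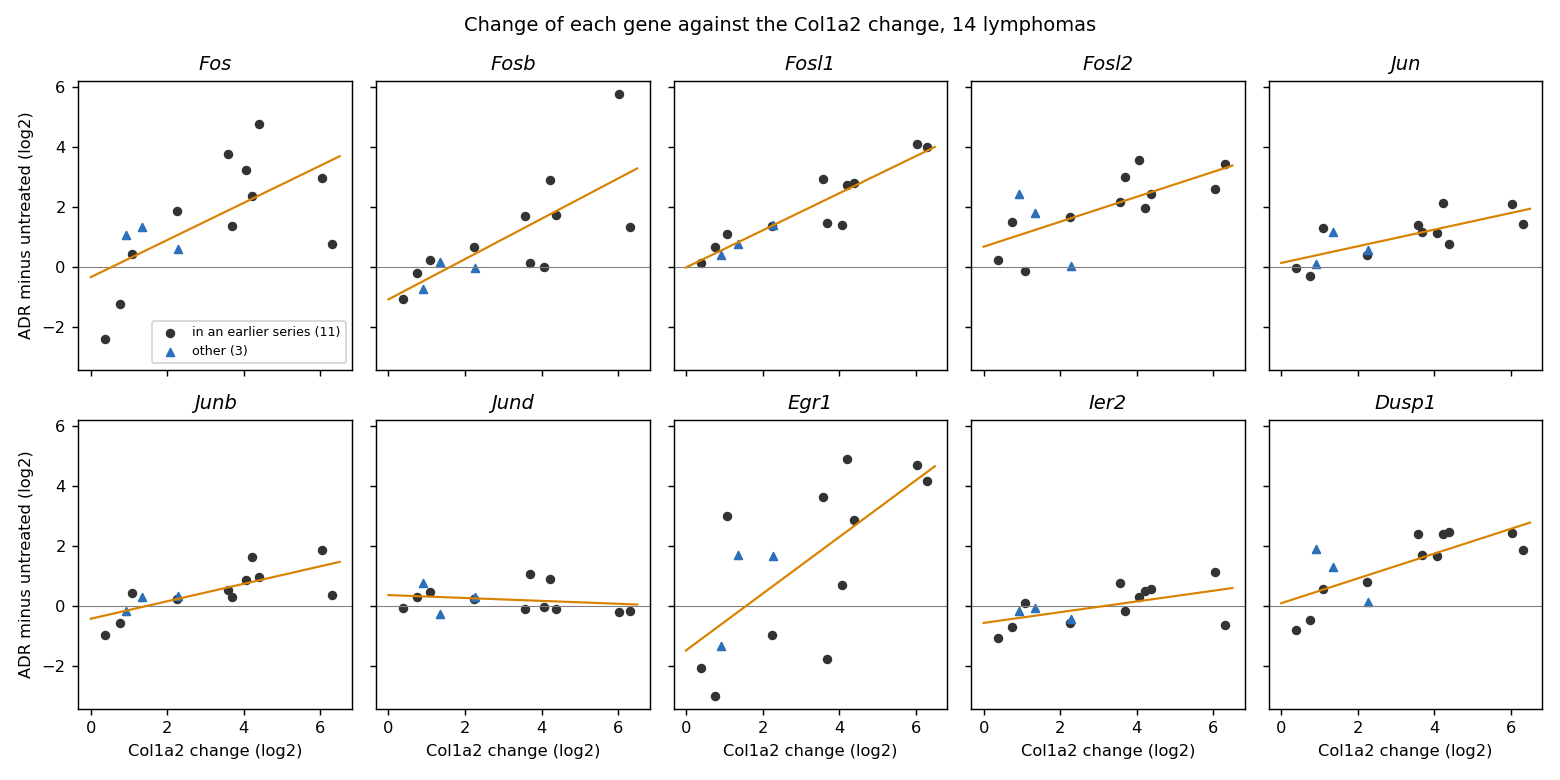
ADR minus untreated change of each gene (y axis, log2) against the Col1a2 change (x axis, log2), with a point per lymphoma, circles for the 11 of an earlier series and triangles for the other 3. The line is the limma fit, which meets the y axis at the value at no Col1a2 change: Fosl1 lies close to its line and Jund has a flat one.

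The same relation was read as a correlation over the 14 lymphomas, with 100000 permutations and p-values adjusted over all genes. Fosl1 had a Pearson r of 0.93, with a permutation p of 2.00e-05 (adjusted p = 0.00139), and a Spearman rho of 0.94, with a permutation p of 2.00e-05 (adjusted p = 0.00264). Its r was 0.86 without 403 and 5560, the lymphomas farthest from the median Col1a2 change, and 0.92 within the 11 of the earlier series. For Fosb, Fosl2, Jun, Junb and Dusp1, r lay between 0.69 and 0.75 (permutation p from 0.00100 to 0.00695, adjusted p from 0.0131 to 0.0468), rho between 0.71 and 0.80 (permutation p from 0.00102 to 0.00541, adjusted p from 0.0171 to 0.0470), r without 403 and 5560 between 0.62 and 0.83, and r within the 11 between 0.71 and 0.86. Fos did not pass here. Its r was 0.63 (adjusted p = 0.0779, unadjusted permutation p = 0.0145) and its rho 0.67 (adjusted p = 0.0769, unadjusted 0.0115), and r was 0.84 without 403 and 5560 and 0.66 within the 11. Egr1 was at the threshold, with r of 0.68 (adjusted p = 0.0581, unadjusted permutation p = 0.00946) and rho of 0.71 (adjusted p = 0.0496, unadjusted 0.00589). Its r was 0.54 without those lymphomas and 0.69 within the 11. Ier2 reached r of 0.55 (adjusted p = 0.155, unadjusted permutation p = 0.0404) and rho of 0.56 (adjusted p = 0.173, unadjusted 0.0412), with r of 0.75 without those lymphomas and 0.56 within the 11. Jund had r of -0.22 (adjusted p = 0.686, unadjusted permutation p = 0.455) and rho of -0.29 (adjusted p = 0.571, unadjusted 0.308), with r of 0.094 and -0.22. Of all genes, 15.2% had an adjusted p under 0.05 for r.

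Within the ADR arrays alone, the levels of 4 genes went with the Col1a2 level at an adjusted p under 0.05 for r: Fosl2 (r = 0.85, permutation p = 1.90e-04, adjusted p = 0.0111; rho = 0.78), Fosl1 (r = 0.84, permutation p = 2.10e-04, adjusted p = 0.0114; rho = 0.84), Dusp1 (r = 0.83, permutation p = 2.50e-04, adjusted p = 0.0122; rho = 0.83) and Fos (r = 0.75, permutation p = 0.00211, adjusted p = 0.0367; rho = 0.74). Without 1467 and 403, the ADR arrays farthest from the median Col1a2 level, r was 0.81, 0.78, 0.81 and 0.74, and within the 11 it was 0.89, 0.80, 0.91 and 0.85. The permutation p of these rho values ran from 4.10e-04 to 0.00351, and rho of Fos did not pass after adjustment (adjusted p = 0.0692). Of all genes 7.70% passed by r. Fosb (r = 0.61, permutation p = 0.00989, adjusted p = 0.0803) and Jun (r = 0.55, permutation p = 0.0343, adjusted p = 0.165) did not pass. Egr1 (r = 0.49, adjusted p = 0.256), Junb (r = 0.47, adjusted p = 0.284), Jund (r = -0.26, adjusted p = 0.628) and Ier2 (r = 0.057, adjusted p = 0.938) did not pass either. In the untreated arrays, where Col1a2 lay within 4.86 to 7.49, 0 of 10 genes passed, and by r 0.0% of all genes did. The lack of calls there is thus not particular to these genes. Of the 10, 0 had an unadjusted permutation p under 0.05 for r, while 3 had for rho. These are 30 relations in all, 10 for the changes and 10 in each group.

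At no Col1a2 change, 0 of 10 genes passed the test (limma), and 1 of 10, Ier2, had an unadjusted p under 0.05. That value is the intercept of the fit, a little below the smallest Col1a2 change measured, 0.38 in lymphoma 1467. Fosl1 stood at -0.0068 ± 0.22 (adjusted p = 0.992, 95% confidence interval -0.48 to 0.47), and the interval does not reach its mean rise of 1.81. Dusp1 stood at 0.10 ± 0.34 (interval -0.63 to 0.84) and Jun at 0.14 ± 0.24 (interval -0.37 to 0.66), also below their mean rises of 1.32 and 0.96. The second Jun probe set, with a mean rise of 0.93, stood at 0.52 (adjusted p = 0.113). Fosl2 had the highest value, 0.68 ± 0.40 (adjusted p = 0.332, interval -0.16 to 1.53). Fos stood at -0.33 ± 0.67, and its interval of -1.76 to 1.10 is wide. Egr1 (-1.47 ± 0.91), Fosb (-1.07 ± 0.54), Ier2 (-0.55 ± 0.25) and Junb (-0.41 ± 0.24) were below 0 without a call, and Jund stood at 0.37 ± 0.20. Ier2 passed without lymphoma 403 (-0.77, adjusted p = 0.0178). With the mean of the macrophage markers added to the fit, again 0 of 10 passed at no change of either and 8 of 10 had a slope on Col1a2. The Col1a2 change was measured in the same mixed cultures, and the part of feeder cells in the changes of the 10 genes was not tested.

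**Figure D4:**
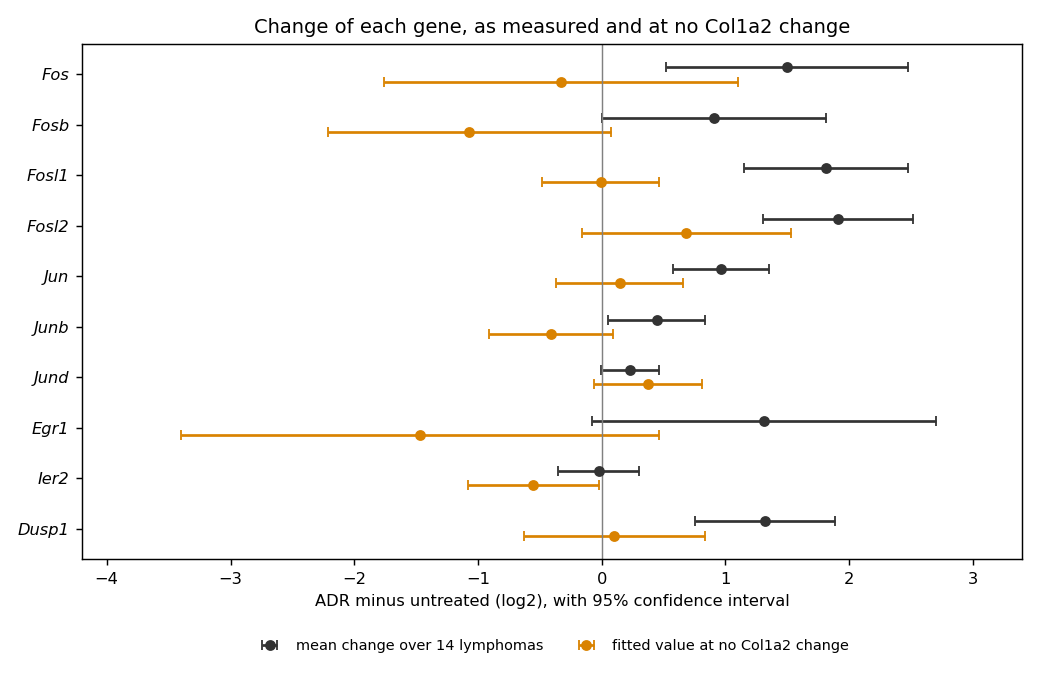
ADR minus untreated change on the log2 scale (x axis) for each of the 10 genes (y axis), with bars for the 95% confidence interval. Black points are the mean over 14 lymphomas and orange points the fitted value at no Col1a2 change: 5 of the black points passed the test and 0 of the orange ones did.

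Read by lymphoma, the genes moved largely together. In lymphoma 1467, which had the smallest Col1a2 change, 8 of 10 genes were lower after ADR, and the median of the 10 changes was -0.87. In 2949, with a Col1a2 change of 0.75, 7 of 10 were lower and the median was -0.37. In each of the other 12 lymphomas the median was above 0, and at least 6 of the 10 genes were higher. Lymphoma 5560, with a Col1a2 change of 6.04, had the highest median, 2.52, with 9 of 10 genes higher by more than 1. The largest Col1a2 change, 6.31 in 403, went with a median of only 1.38, with Ier2 at -0.62 and Fos at 0.76. Lymphoma 5043 also departed from the order, with Fosl2 at 2.42 and Dusp1 at 1.89 beside a Col1a2 change of 0.92 and Egr1 at -1.31.

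**Figure D5:**
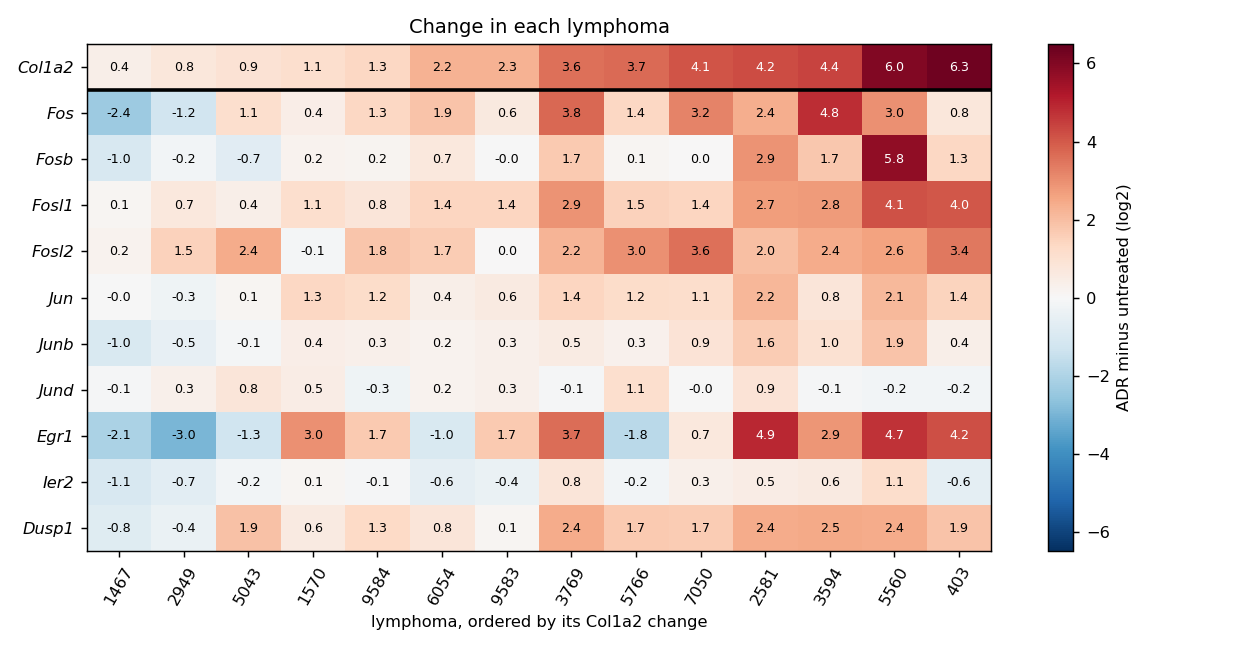
ADR minus untreated change (colour and number, log2) of Col1a2 and the 10 genes (rows) in 14 lymphomas (columns), ordered by the Col1a2 change. Blue cells gather at the left, in 1467 and 2949, and red cells at the right, with Jund pale throughout.

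Across lymphomas the changes of the genes were also set against each other. Over all 45 pairs r ran from -0.30 to 0.86 with a median of 0.64. Leaving out Jund and Fosl2, the genes with the weakest pairs, it ran over 28 pairs from 0.56 to 0.86 with a median of 0.75. Both are descriptions over 14 lymphomas that share the Col1a2 relation above. Many other genes were as close to some members: by r with Fosl1, Fos ranked 1970 among all genes, while by r with Jun, Junb ranked 7. The 9 pairs with Jund had r from -0.30 to 0.0041. Fosl2 was closest to Dusp1, at 0.71, and had r of 0.16 with Egr1. Fos went with Dusp1 (r = 0.86, permutation p = 8.00e-05, adjusted p = 0.0221 over all genes set against Fos; rho = 0.82 with permutation p = 6.20e-04, r = 0.79 without 1467 and 3594). Jun went with Junb (r = 0.86, permutation p = 1.10e-04, adjusted p = 0.0211 over all genes set against Jun; rho = 0.79 with permutation p = 0.00117, r = 0.79 without 1467 and 2949). Egr1 went with Jun (r = 0.85, permutation p = 1.50e-04, adjusted p = 0.0136 over all genes set against Egr1; rho = 0.91 with permutation p = 1.00e-05, r = 0.76 without 1467 and 2949).

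The genes whose 14 changes were most alike differed between members. For Fosl1 they were Npdc1 and Timp1, an inhibitor of matrix metalloproteinases, each at r = 0.99 (permutation p = 1.00e-05, the smallest that 100000 permutations can give, adjusted p = 7.71e-04; rho = 0.98; r of at least 0.97 without 403 and 5560). Both also followed the Col1a2 change, at r = 0.94, and Timp1 had a Col1a2 slope of 0.95 and stood at -0.43 at no Col1a2 change (adjusted p = 0.476). Of the nearest genes of the other members, those of Jund had r of -0.24 and -0.20 with the Col1a2 change and the rest 0.60 to 0.88, and the part of feeder cells in these likenesses was not tested. For Egr1 they were the autophagy gene Atg12 (r = 0.93) and the ERK phosphatase gene Dusp6 (r = 0.92), both with adjusted p = 0.00933, and for Jun Atg12 and the sulfotransferase gene Ust (both r = 0.89). Junb and Ier2 shared the same nearest genes, the transcriptional repressor gene Bhlhe40 and the syntaxin gene Stx12, at r from 0.91 to 0.93. For Fos they were Rab8b and Fkbp1b (both r = 0.93), for Fosb the phospholipase gene Pla2g4a (r = 0.94) and Saa4 (r = 0.91), and for Dusp1 the copper transporter gene Atp7a (r = 0.90) and Tmem192 (r = 0.89). The nearest genes of Ier2 missed the adjustment (adjusted p = 0.0606), as did those of Fosl2 (Ugp2 at 0.87 and Msrb3 at 0.86, both adjusted p = 0.158) and Jund (C030023E24Rik at 0.85 and Ncam2 at 0.84, adjusted p = 0.582 and 0.713), and those of the other 5 genes passed with adjusted p from 0.00866 to 0.0364.

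Related genes were read from lists, by counts set against the shares of all genes given above. Of 18 measured other basic leucine zipper factors (ATF, CREB, MAF, BATF and C/EBP genes), 10 rose and 1, Creb1, fell (-0.55 ± 0.087, adjusted p = 2.01e-04), with a median change of 0.35. The C/EBP genes Cebpd (1.71 ± 0.17, adjusted p = 4.62e-06) and Cebpb (1.37 ± 0.13, adjusted p = 4.70e-06) and the macrophage-expressed Maf (1.65 ± 0.24, adjusted p = 1.00e-04) led, each in 14 of 14 lymphomas. At no Col1a2 change 4 of the 18 passed, all higher: Jdp2, Cebpd at 2.14 (adjusted p = 0.00125), Maf at 2.02 (adjusted p = 0.00952) and Cebpb at 1.15 (adjusted p = 0.00848), and 1 of 18, Maff, had a slope on Col1a2 (0.31, adjusted p = 4.33e-04). Macrophage markers moved alike, with 5 of 11 passing at no Col1a2 change (Ms4a7, Adgre1, Cd14, Lyz2 and Csf1r, at 2.15 to 2.96) and 0 of 11 with a slope. The part of macrophages in the changes of these zipper factors was not tested.

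Of 40 other immediate early genes and regulators of them, such as Srf and the Elk genes, 17 rose and 2 fell, with a median change of 0.31. Those that fell were Myc (-0.71 ± 0.18, adjusted p = 0.00734) and the regulator gene Elk4 (-0.53 ± 0.13, adjusted p = 0.00529). The Myc probe set may also read the transgene, which was not tested. The matricellular genes Ccn2 (3.23 ± 0.52, adjusted p = 2.40e-04) and Ccn1 (1.84 ± 0.36, adjusted p = 0.00117) and the factor gene Klf4 (2.62 ± 0.39, adjusted p = 1.11e-04) rose most. Their values at no Col1a2 change were 0.19, -0.28 and 0.76, each without a call, and 14 of the 40 had a slope above 0 on Col1a2. Of 27 measured AP-1 target genes 22 rose and 0 fell, with a median of 1.26: the prostaglandin synthase gene Ptgs2 (3.02 ± 0.57, adjusted p = 7.89e-04), the collagenase gene Mmp13 (2.92 ± 0.41, adjusted p = 6.46e-05) and the chemokine gene Cxcl2 (2.91 ± 0.26, adjusted p = 2.88e-06) led. At no Col1a2 change 4 of the 27 were higher (Cxcl2, Lgals3, Il1b and Cd44) and 1 lower (Hbegf), and Cxcl2 stood at 2.22 (adjusted p = 0.00632) while Ptgs2 stood at 0.45 (adjusted p = 0.792). Of the 27, 8 had a slope above 0 on Col1a2 and 0 below 0. The part of AP-1, of feeder cells or of macrophages in the changes of these target genes was not tested. Of 26 measured MAP kinase inputs, 6 rose and 3 fell (Rps6ka3, Map3k4 and Mapk8, at -0.31 to -0.21), with changes from -0.36 to 0.43 and a median of 0.019. The stress kinase kinase genes Map2k4 (0.43 ± 0.088, adjusted p = 0.00147) and Map2k3 (0.38 ± 0.10, adjusted p = 0.00893) and the p38 target kinase gene Mapkapk2 (0.33 ± 0.11, adjusted p = 0.0299) had the highest values. At no Col1a2 change 2 of the 26 were higher (Nras and Mapkapk3) and 2 lower (Map3k4, and Map2k6 at -1.45, adjusted p = 4.64e-04). The slope on Col1a2 passed above 0 for 3 of the 26 and below 0 for 1.

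The labels trace 11 lymphomas to an earlier series, and 3 others (5043, 9583 and 9584) to none. The changes of 0 of the 10 genes differed between them by limma, where 0.0055% of all genes did, and 0 had an unadjusted p under 0.05. Mean changes were 2.07 and 0.86 for Fosl1 (adjusted p = 0.864) and 1.21 and -0.19 for Fosb (adjusted p = 0.866). The mean change of Col1a2 was 3.34 in the 11 and 1.51 in the 3 (adjusted p = 0.864). Within the 11, Fosl2, Fosl1, Jun and Dusp1 rose.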

How the data were processed

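Per the labels, total RNA of 28 cultures was labelled and hybridised, 1 array each. The deposited table gives 45101 probe sets on a log2 scale. The authors used RMA and Partek 6.5, per the submitters' processing notes, and the genome build is not given in the sources used here. RMA corrects background, normalizes between arrays and compresses changes of dim probe sets, and the number of arrays limits the precision.

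Probe sets were named from the array's 2016 annotation. Of 45101, 34945 had 1 gene, 932 several, 9160 none listed and 64 were controls. Of the 34945, 34741 had an identifier in RefSeq (GRCm38.p6). The 10 genes had 14 probe sets, and the brightest per gene was used. Some listed genes were not analysed here. Every value column was mapped to a sample.

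Changes were fitted with limma 3.58.1 (R 4.3.3) with lymphoma as a block, adjusted over 18193 genes at 0.05, and SE are moderated. The pairing is the lymphoma in the labels: arrays of the same lymphoma deviated together (r from 0.27 to 0.61), against a median of -0.08 otherwise. Col1a2 fits used the 14 differences. The fits were run on simulated data in which the noise of each gene was independent. Shared variation between genes was not simulated, so that run does not check the calls made here. Figures used matplotlib 3.10.9 in Python 3.11.15.

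Members and lists were chosen with earlier results of these data known. Named genes are all members, up to 3 per related list with the largest change among those called, and the 2 genes most alike per member. Other list genes were named where a count was 5 or fewer, or after their values were seen. Alternatives were the block, probe set, normalization, a filter on dim genes, the feeder measure and leaving out lymphomas.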

Additional observations from a re-analysis of the deposited data

How the results depend on the processing

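Without the block 4 of 10 members rose, with it 5, and with a random block 6. The count of members that rose was 4 to 6 under every alternative run, including leaving out each lymphoma in turn, which also gave 4 to 6. The count that followed Col1a2 was 8, between 6 and 8 under the other alternatives and 5 to 8 with 1 lymphoma left out. At no Col1a2 change it was 0, against 1 (Ier2, -0.74, adjusted p = 0.0468) without 403 and 5560 and 0 to 1 with 1 lymphoma left out. The filter on dim genes tested 8 members and left out Fosb and Fosl1, so the rise of Fosl1 was not tested there. All sign changes were in values without a call. By the most variable probe set per gene, values at no Col1a2 change were 0.11 for Fos and 0.17 for Fosl1. Without 403 and 5560 they were 0.14 for Fosl1 and -0.19 for Dusp1, and the Jund slope was 0.027. Within the 11 lymphomas they were 0.050 for Fosl1 and -0.31 for Dusp1, and the Ier2 change was 0.026. Jun was at -0.043 without 1570. With the fibroblast mean Fosl1 was at 0.13. With the macrophage mean added Jun was at -0.23, Jund at -0.015 and Dusp1 at -0.58. The other probe sets gave -0.42 for Fosl2 and -0.15 for Jund at no Col1a2 change, and a Jund change of -0.16. With 1 lymphoma left out, ranges across 0 were -0.12 to 0.053 for the Ier2 change and, at no Col1a2 change, -0.85 to 0.32 for Fos, -0.099 to 0.055 for Fosl1, -0.043 to 0.30 for Jun and -0.22 to 0.40 for Dusp1. The causes were not tested. Fosb lies near the low end of the scale, where changes are compressed.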

Other observations

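Some related genes passed at no Col1a2 change, and were chosen after their values were seen. Klf6, a zinc finger factor gene, was higher in 14 of 14 lymphomas, by 1.71 ± 0.16 (limma adjusted p = 3.54e-06), with a value of 1.28 at no Col1a2 change (adjusted p = 0.00827). Jdp2, which encodes a repressor partner of Jun, was higher in 14 of 14, by 1.05 ± 0.13 (adjusted p = 3.19e-05), with 1.25 there (adjusted p = 0.00607). Klf10 (0.23 ± 0.24, adjusted p = 0.531) and the RNA decay gene Zfp36l1 (-0.046 ± 0.16, adjusted p = 0.868) had no call over all lymphomas, and stood at -0.93 (adjusted p = 0.0395) and -0.71 (adjusted p = 0.0437). Hbegf, an EGF receptor ligand gene, was higher in 10 of 14, by 1.26 ± 0.43 (adjusted p = 0.0355), with -1.15 there (adjusted p = 0.0424). Atf3, a stress-induced partner of Jun, was higher in 14 of 14, by 1.09 ± 0.18 (adjusted p = 2.98e-04), with 1.01 there, without a call (adjusted p = 0.0725).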
